A study of Mus musculus with 4 samples.

Results

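The interferon-stimulated genes (ISGs) described here are 32 genes, taken by name from a list, of 33696 genes in the matrices. All 32 were found and had UMIs (unique molecular identifiers, 1 for each captured transcript) in each of the 4 libraries. They were followed in CD45+ leukocytes of subcutaneous KPC tumors, a pancreatic cancer line from genetically engineered mice that carry Pdx1-Cre and a mutant Trp53 allele, grown in male C57BL/6 mice of 8 to 10 weeks. The study asked how STING, which senses cyclic dinucleotides, and the lymphotoxin-β receptor (LTβR) act together to induce tertiary lymphoid structures and immunity against tumors.

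The 4 groups shared the tumor line, the host strain, the harvest on day 14 and the sort of live CD45+ cells, and differed in treatment. The untreated group received neither agonist. The ADU-S100 group received the STING agonist ADU-S100, a cyclic dinucleotide analog, injected once into the tumor. The anti-LTβR group received the agonistic antibody 4H8 repeatedly into the peritoneum, and the combination group received both agents. Cells of 10 tumors were pooled into 1 library per group, and transcripts were read from their 5′ ends. With 1 library per group the spread between tumors is unknown and no difference could be tested. All intervals are exact 95% intervals that cover counting error only.

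Type I interferons bind a receptor that acts through the kinases Jak1 and Tyk2. A complex that includes Stat2 and Irf9 then binds interferon-stimulated response elements in the promoters of ISGs. ISG products detect foreign nucleic acid, bind or degrade viral RNA, block viral entry and release, or set the length of the response itself. STING activates the kinase Tbk1 and the factor Irf3, which switch on the interferon beta gene.

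Promoter sequence was available from RefSeq (GRCm38.p6) for 22 of the 32 members, as a window of 250 bases before and 50 after the start of transcription. The core of the interferon-stimulated response element, which is GAAA, any 2 bases and again GAAA, was searched on both strands. Of the 22 members, 14 (63.6%) held it in a window, against 1079 of all 27025 genes with a window (3.99%). The 14 were Bst2, Ifih1, Ifit1, Ifit3, Ifit3b, Ifitm3, Isg15, Oas1a, Oas3, Rigi, Rsad2, Slfn5, Stat2 and Trim30a. The 250 bases before the start are shown for the 4 IFIT genes, which were lower in most places, for Isg15 and Bst2, which are among the 4 members with most UMIs, and for Oasl1, which was higher with anti-LTβR in more subtypes (3) than any other member. Capitals mark the response element core or its reverse complement. Each sequence is read 5′ to 3′ on the strand of the gene.
Ifit1 (chr19:34640639-34640888, plus strand): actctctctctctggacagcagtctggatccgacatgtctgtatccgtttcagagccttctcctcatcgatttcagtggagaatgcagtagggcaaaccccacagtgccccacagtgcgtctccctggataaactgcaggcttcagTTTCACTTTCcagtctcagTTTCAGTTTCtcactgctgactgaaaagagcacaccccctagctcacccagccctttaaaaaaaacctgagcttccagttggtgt
Ifit2 (chr19:34550444-34550693, plus strand): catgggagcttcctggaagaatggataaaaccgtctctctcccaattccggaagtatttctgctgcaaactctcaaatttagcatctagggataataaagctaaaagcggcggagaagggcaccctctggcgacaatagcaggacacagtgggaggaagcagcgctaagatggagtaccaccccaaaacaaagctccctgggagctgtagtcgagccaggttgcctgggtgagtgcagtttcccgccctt
Ifit3 (chr19:34583279-34583528, plus strand): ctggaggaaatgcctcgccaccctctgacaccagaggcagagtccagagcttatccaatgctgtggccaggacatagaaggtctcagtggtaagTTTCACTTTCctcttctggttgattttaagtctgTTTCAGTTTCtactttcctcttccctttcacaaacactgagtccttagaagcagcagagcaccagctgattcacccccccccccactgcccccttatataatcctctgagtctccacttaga
Ifit3b (chr19:34607707-34607956, plus strand): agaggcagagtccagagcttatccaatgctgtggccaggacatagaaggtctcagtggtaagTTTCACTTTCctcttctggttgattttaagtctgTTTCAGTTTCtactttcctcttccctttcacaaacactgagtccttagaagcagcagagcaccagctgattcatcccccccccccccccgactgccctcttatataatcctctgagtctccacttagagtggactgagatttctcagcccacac
Isg15 (chr4:156200819-156201068, minus strand): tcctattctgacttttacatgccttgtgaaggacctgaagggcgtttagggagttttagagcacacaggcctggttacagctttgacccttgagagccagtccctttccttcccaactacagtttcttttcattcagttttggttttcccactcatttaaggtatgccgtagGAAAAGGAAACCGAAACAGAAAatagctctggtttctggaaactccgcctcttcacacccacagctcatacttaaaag
Bst2 (chr8:71537473-71537722, minus strand): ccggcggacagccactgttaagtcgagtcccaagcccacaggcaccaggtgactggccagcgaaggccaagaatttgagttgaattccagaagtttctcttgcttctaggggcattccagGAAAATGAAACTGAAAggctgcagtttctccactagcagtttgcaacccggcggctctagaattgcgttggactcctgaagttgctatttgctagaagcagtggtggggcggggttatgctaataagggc
Oasl1 (chr5:114922990-114923239, plus strand): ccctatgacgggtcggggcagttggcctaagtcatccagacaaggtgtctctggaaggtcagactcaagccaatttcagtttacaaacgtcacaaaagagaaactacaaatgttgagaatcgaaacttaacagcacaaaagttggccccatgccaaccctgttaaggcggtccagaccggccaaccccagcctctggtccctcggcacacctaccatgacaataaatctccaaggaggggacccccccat
In this stretch Ifit1, Ifit3, Ifit3b and Bst2 each held 2 matches and Isg15 held 3, those of Isg15 and of Bst2 overlapping, while Ifit2 and Oasl1 held none. Another annotated start of Ifit2 had none either. Ifit3 and Ifit3b shared an identical run of 169 bases, while the longest run that Ifit1 shared with Ifit3 was 13 bases. The transcripts of Ifit3 and Ifit3b are near copies too. Of all 50-base words of Ifit3 51.2% occurred in Ifit3b, so the split of reads between this pair is uncertain. For Oas1a 57.6% of its words occurred in Oas1g, and for Ifi204 20% occurred in another gene, so these levels may hold reads of their relatives.

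The libraries held 8730, 15404, 14634 and 16322 cells. Every set of 4 values follows the order untreated, ADU-S100, anti-LTβR, combination. After filters on genes per cell, mitochondrial share and doublets, 7512, 13443, 13232 and 14669 cells were kept, with medians of 4620, 3109, 3735 and 2200 UMIs. Of all barcodes, 304 (0.555%) occurred in more than 1 library. The kept cells fell into 32 clusters named from lists of 10 markers. Of these, 6 clusters with 8945 cells (18.3%) stayed unnamed, and 1 cluster of 823 cells carried markers of non-leukocytes in spite of the CD45 sort.

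The subtypes compared were C1q macrophage-like cells (1686, 1357, 2185 and 2702), monocyte-like cells (898, 987, 2011 and 2389) and neutrophil-like cells (491, 5291, 963 and 1285). Dendritic cells (DCs) formed cDC1-like (134, 60, 101 and 120), cDC2-like (292, 265, 454 and 529), mature DC-like (160, 128, 167 and 132) and plasmacytoid DC-like (pDC; 68, 62, 60 and 29) cells. Lymphoid subtypes were T cell-like (1383, 595, 1995 and 1599), NK cell-like (412, 360, 817 and 609) and plasma cell-like (106, 67, 401 and 838) cells. These names rest on markers only and are used below without the suffix. Subtypes with under 50 cells in a library were not compared, which left out pDCs of the combination library and mast cells and basophils (29, 21, 14 and 51 cells). B cells (4, 5, 136 and 210 cells) were compared only between the anti-LTβR and combination libraries. A level is the share that a gene takes of all UMIs, on the CPM scale, in the summed cells of a subtype in 1 library. Levels are not divided by gene length, so each gene is compared with itself between cells and libraries.

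In the untreated library, ISG levels were highest in monocytes, cDC2 and neutrophils and lowest in NK and plasma cells. Summed over the 32 members, the level was 9927 CPM in monocytes (9846 to 10010), 7929 in cDC2 (7814 to 8044), 7824 in neutrophils (7645 to 8007) and 6396 in C1q macrophages (6356 to 6435). It was 4946 CPM in pDCs, 3564 in cDC1, 2547 in T cells, 2313 in mature DCs, 1638 in NK cells and 1260 in plasma cells. The intervals of cDC2 and neutrophils overlapped, and those of the other neighbors in this order did not. The totals include immunoglobulin genes, which were among the leading genes of a plasma cell cluster. Their part in the low place of plasma cells was not tested. The sum was carried by few genes, since Ifitm3, Ifi27l2a, Isg15 and Bst2 took 52.2% of all member UMIs.

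Members had different cellular homes. In the untreated library 14 were highest in monocytes (Ifih1, Dhx58, Zbp1, Ifi204, Irf7, Ifit2, Ifit3, Oas1a, Mx1, Mx2, Ifi27l2a, Xaf1, Parp14 and Slfn5) and 11 in neutrophils (Isg15, Ifit1, Ifit3b, Oas2, Oas3, Oasl1, Oasl2, Rsad2, Cmpk2, Rtp4 and Trim30a). The others were highest in C1q macrophages (Bst2 and Ifi44), cDC2 (Usp18 and Ifitm3), NK cells (Rigi), cDC1 (Stat2) or mature DCs (Herc6). The pDCs were left out of this ranking, as 1 library had too few. Bst2, a known antigen of mouse pDCs, reached 2687, 2044, 2572 and 2089 CPM there, against 664 CPM in untreated C1q macrophages. For 21 members the same subtype was highest in all 4 libraries.

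Neutrophils combined high and nearly absent ISGs. Isg15, a ubiquitin-like modifier, stood at 1513 CPM in untreated neutrophils against 604 in monocytes. Rsad2, which encodes viperin, stood at 597 against 159. Mx1 was at 1.08, 1.81, 7.03 and 3.35 CPM in neutrophils against 107 CPM in untreated monocytes. Mx2, at 1.08, 2.3, 1.17 and 2.68 CPM, and Ifi44, at 1.08, 0.739, 1.17 and 2.68 CPM, were likewise near 0 in neutrophils of all 4 libraries. In C57BL/6 mice Mx1 carries a deletion that removes a functional protein, so its level reports the transcript only.

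**Figure D1:**
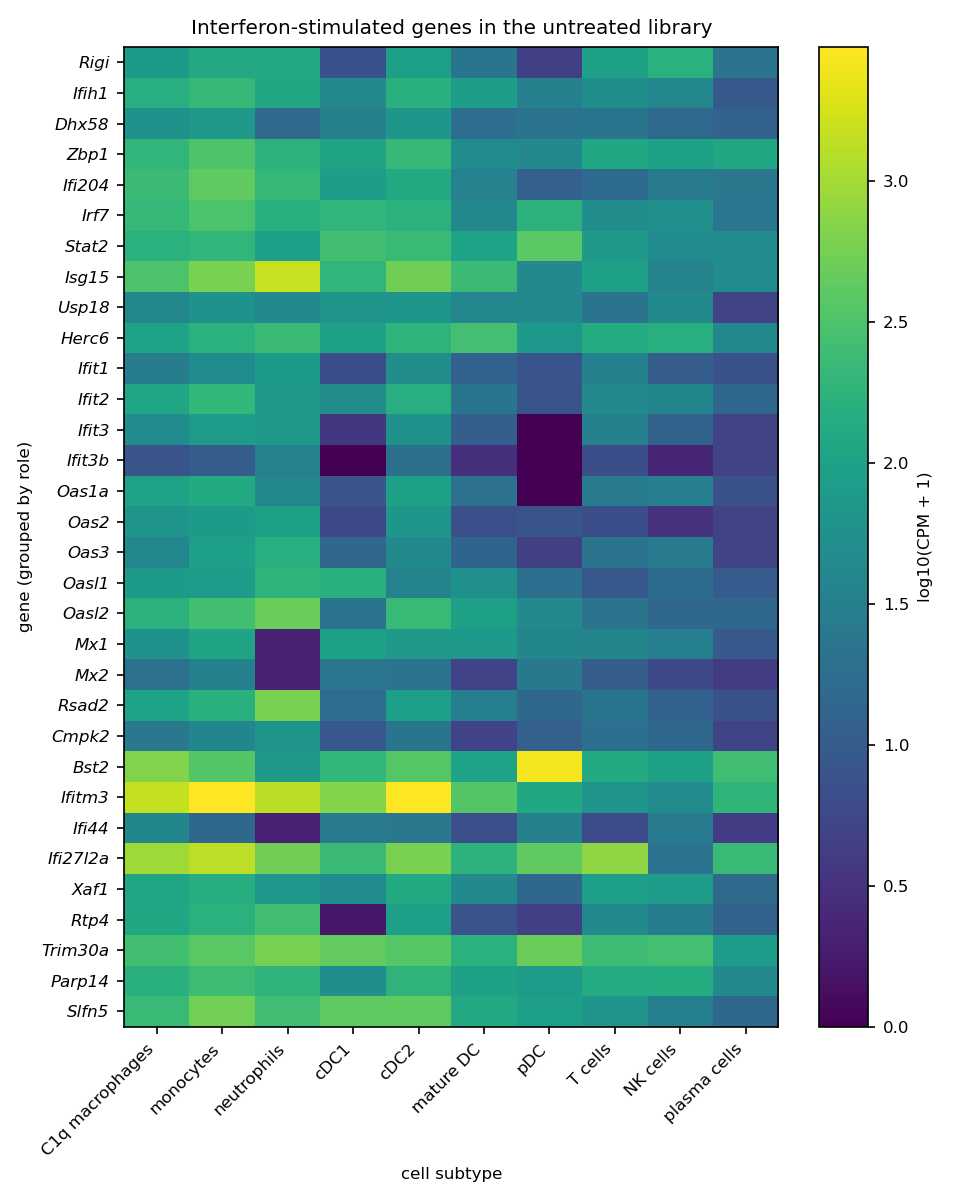
Level of each of the 32 genes (rows, grouped by role) in each cell subtype (columns) of the untreated library, in color as log10 of CPM plus 1. Ifitm3 is bright in the C1q macrophage, monocyte and cDC2 columns, Isg15 in neutrophils and Bst2 in pDCs, while Mx1, Mx2 and Ifi44 are dark in neutrophils.

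Many ISGs had lower levels in the treated libraries than in the untreated library on day 14. A member was counted as higher or lower in a subtype where it differed by at least 1.5-fold with an interval on one side of 1, given at least 50 UMIs over both libraries. With ADU-S100, 11 of 234 member and subtype pairs were higher (4.7%, against 4.49% of all genes in the same subtypes) and 43 were lower (18.4%, against 8.43%). With anti-LTβR, 10 of 243 were higher (4.12%, against 4.5%) and 54 were lower (22.2%, against 4.34%). With the combination, 12 of 235 were higher (5.11%, against 4.77%) and 39 were lower (16.6%, against 4.07%). The share of pairs counted as lower lay above that of all genes in each treatment, and the share counted as higher lay near it. These comparisons share the untreated library, so an unusual level there enters all of them. Against untreated, Dhx58, Oas1a and Trim30a were counted in no subtype.

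**Figure D2:**
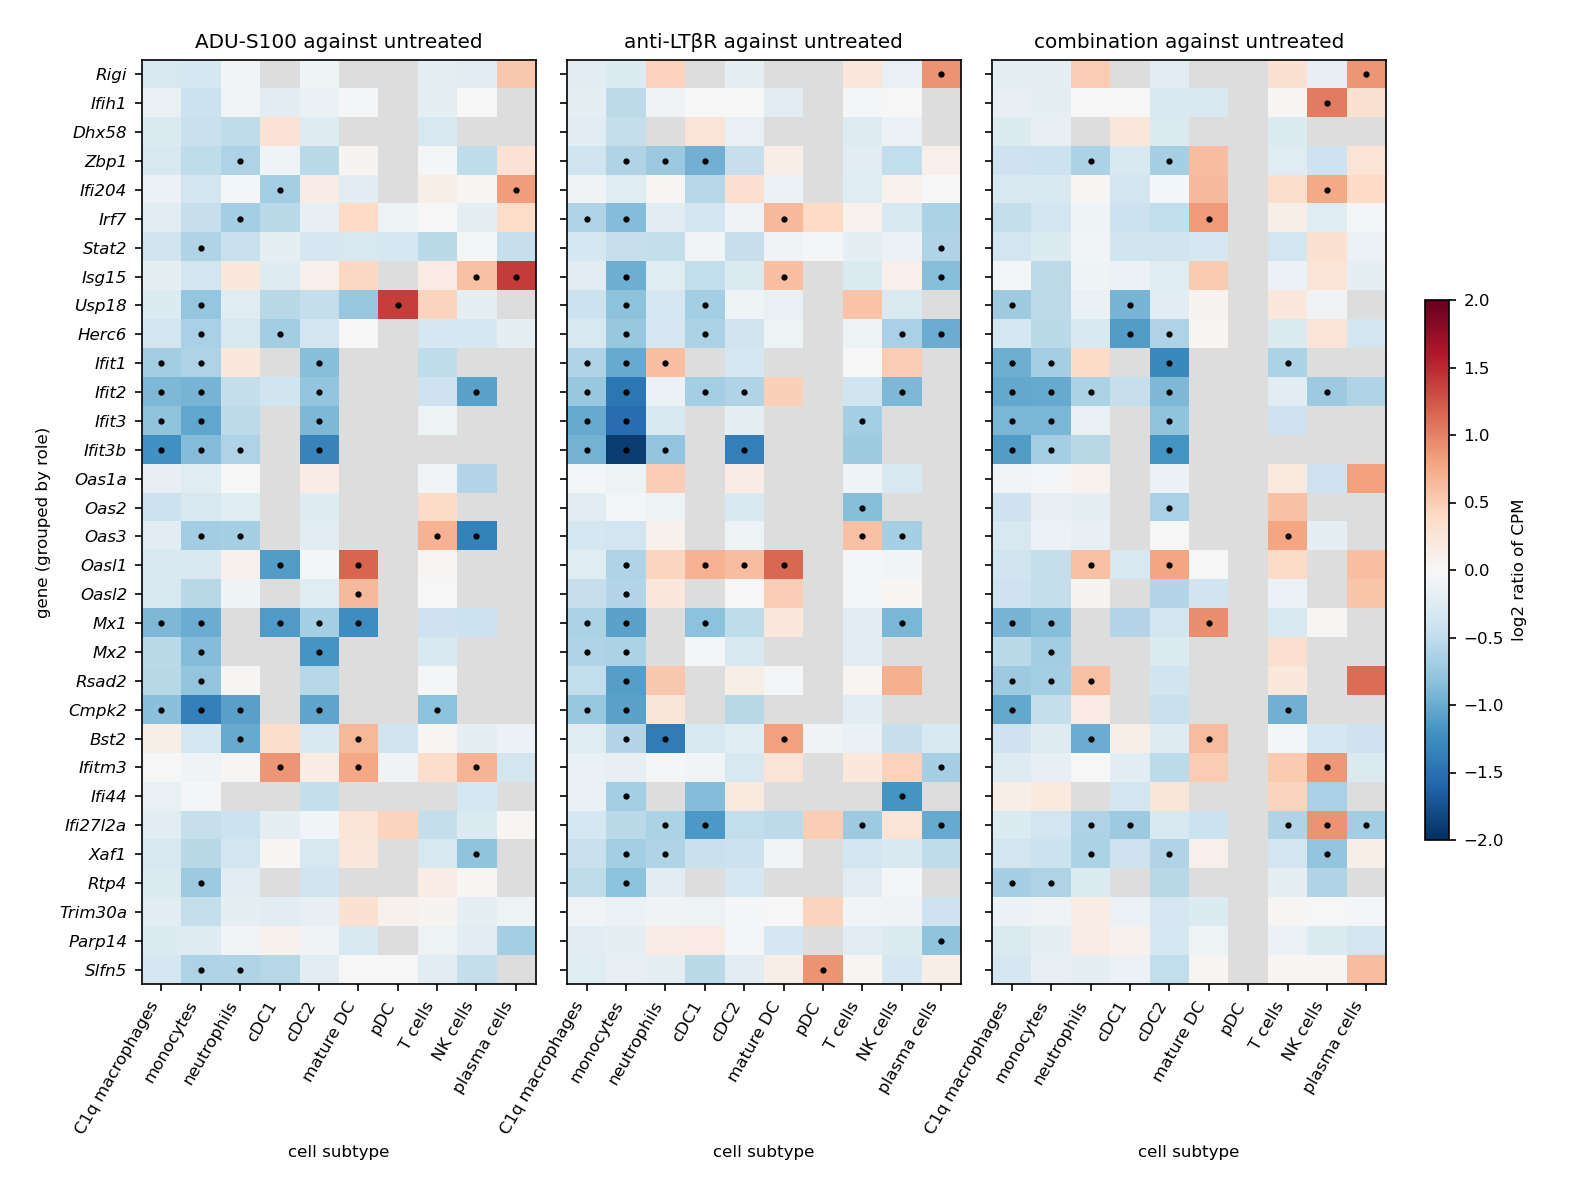
Log2 ratio of CPM to the untreated library (color) for each gene (rows) in each cell subtype (columns) and treatment (panels). Black dots mark at least 1.5-fold with the counting interval on one side of 1, and gray marks under 50 UMIs over both libraries or, for pDCs of the combination, too few cells. The 4 IFIT rows are blue in C1q macrophages and monocytes in all panels.

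The summed level differed less than many single genes did. In C1q macrophages it was 6396, 5655, 5317 and 5109 CPM, with log2 differences from untreated of -0.18 for ADU-S100, -0.27 for anti-LTβR and -0.32 for the combination. In monocytes it was 9927, 7729, 7430 and 8063 CPM (-0.36, -0.42 and -0.30). Every treated library lay below the untreated library in both. Markers of C1q macrophages were also abundant in the monocytes, summing to 5703, 5468, 4076 and 4543 CPM against 6101, 5368, 5970 and 5045 CPM for the monocyte markers. The part of this in the monocyte results was not tested.

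In the other subtypes too the sum differed from untreated by under 1.5-fold. It was 7929, 7589, 6642 and 5863 CPM in cDC2, 3564, 3589, 2989 and 2944 in cDC1 and 2313, 2806, 2610 and 2669 in mature DCs. It was 2547, 2234, 2109 and 2221 CPM in T cells, 1638, 1389, 1391 and 1643 in NK cells and 1260, 1270, 886 and 1117 in plasma cells. In pDCs it was 4946, 4596 and 5456 CPM in the first 3 libraries. In plasma cells the combination turned to lie above untreated by 0.21 by the markers of each cell, 0.25 with thinned cells, 0.12 without the 4 most abundant members and 0.18 as a mean of single-cell shares. Neutrophils stood at 7824, 7315, 7557 and 7808 CPM, and their log2 differences of -0.10 with ADU-S100 and -0.05 with anti-LTβR turned to 0.20 and 0.09 once the median of all genes in that subtype was set to 0. The mean log2 difference over the 9 subtypes compared in all libraries was -0.09, -0.23 and -0.17 for the 3 treatments, and the value for ADU-S100 became 0.03 with each subtype centered in that way and 0.003172 with cells thinned to 1000 UMIs.

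**Figure D3:**
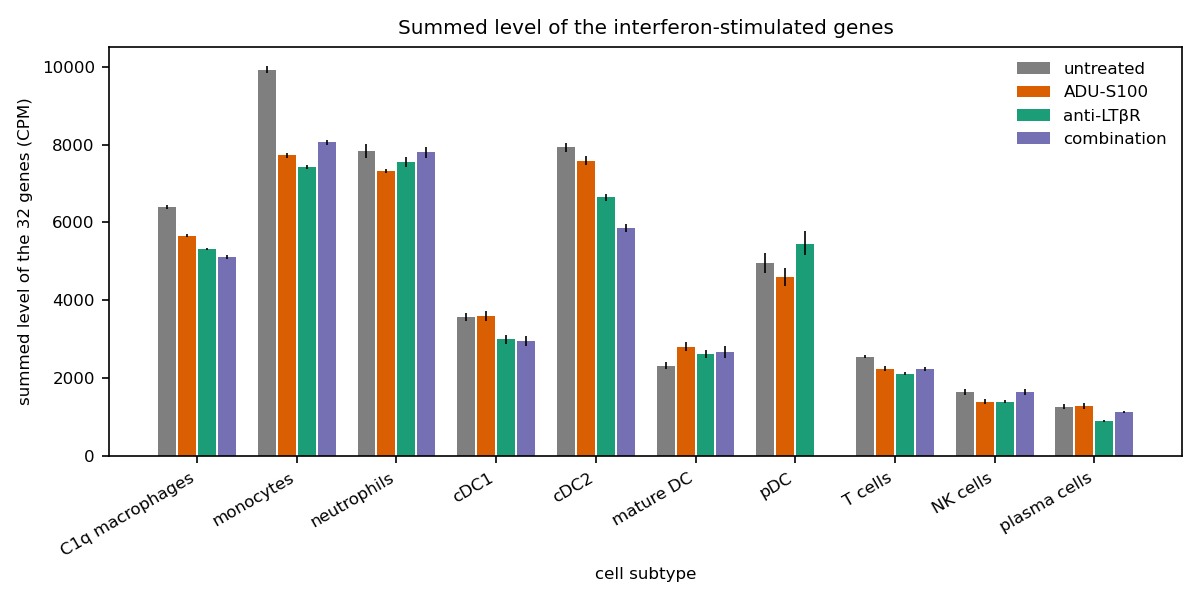
Summed level of the 32 genes in CPM (y axis) by cell subtype (x axis) and library (color). Each bar is 1 library and whiskers are exact 95% counting intervals. Monocytes stand highest, and the gray untreated bar is the tallest in C1q macrophages, monocytes, cDC2, T cells and, by a small margin, neutrophils.

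Counts by subtype showed where the lower members lay. In C1q macrophages no member was higher with any treatment, while 6, 8 and 9 of 32 were lower with ADU-S100, anti-LTβR and the combination. Of all genes tested there, 2.32%, 4.61% and 4.47% were higher and 5.03%, 1.44% and 3.71% lower. The C1q macrophages held 21940, 24790, 19650 and 19350 CPM of their own markers. They also held 576.7, 501.8, 1220 and 1328 CPM of cDC2 markers and 492.8, 683.4, 659 and 1091 CPM of neutrophil markers. The part of these other markers in the counts was not tested. In monocytes no member was higher and 14, 19 and 8 of 32 were lower, against 4.86%, 4.19% and 3.97% of all genes higher and 6.87%, 3.16% and 2.67% lower. Monocytes of the anti-LTβR library thus held more lower members than any other subtype and treatment compared with untreated. With each cell assigned by its own markers, 3 of them turned, Oasl1 to 0.24, Rsad2 to 0.36 and Ifi44 to 0.21 on the log2 scale, and Mx2 turned to 0.13 with cells thinned to 1000 UMIs.

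The cells called cDC2 held 2349, 1829, 3109 and 2744 CPM of cDC2 markers beside 3171, 4131, 3093 and 2795 CPM of neutrophil markers and 893, 526, 1317 and 1937 CPM of C1q macrophage markers, whose part in the results was not tested. In cDC2, 7, 2 and 8 of 32 were lower, against 6.03%, 2.09% and 2.96% of all genes, and 0, 1 and 1 were higher, against 4.91%, 5.65% and 6.66%. By the markers of each cell, Ifit1 (0.56) and Ifit3b (0.35) turned with ADU-S100, Ifit2 (1.07) and Ifit3b (0.16) with anti-LTβR, and Ifit1 (0.56), Ifit2 (1.19), Ifit3b (1.15) and Xaf1 (0.36) with the combination.

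Neutrophil counts lay closer to those of all genes. With ADU-S100, 7 of 29 members were lower and none higher, against 20.1% and 4.27% of all genes. With anti-LTβR 5 of 28 were lower and 1 higher, against 13.5% and 4.8%, and with the combination 5 of 28 were lower and 2 higher, against 10.2% and 4.02%. The median log2 difference of all genes in neutrophils was itself -0.30, -0.14 and -0.13.

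In cDC1, 4 of 19, 6 of 21 and 3 of 20 members were lower, against 6.79%, 4.57% and 2.83% of all genes, and 1, 1 and 0 were higher, against 6.09%, 5.94% and 4.62%. In mature DCs 4 of 18, 4 of 20 and 3 of 18 members were higher, against 7.22%, 4.37% and 7.0% of all genes, and 1, 0 and 0 were lower, against 6.82%, 4.29% and 5.4%. The summed level of mature DCs, above untreated in each treated library, turned to -0.14 with anti-LTβR and -0.06 with the combination by the markers of each cell, and to -0.03 and -0.02 with interferon genes allowed into the clustering. In pDCs 1 of 8 was higher and none lower with ADU-S100, against 9.32% and 5.81%, and 1 of 6 was higher and none lower with anti-LTβR, against 5.24% and 4.15%.

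In T cells 1 of 30, 1 of 31 and 1 of 31 were higher, against 3.49%, 4.46% and 3.52% of all genes, and 1, 3 and 3 were lower, against 6.06%, 4.85% and 4.63%. In NK cells 2 of 22, 0 of 27 and 4 of 22 were higher, against 3.66%, 2.84% and 4.5%, and 3, 5 and 2 were lower, against 3.9%, 2.48% and 2.83%. In plasma cells 2 of 12, 1 of 14 and 1 of 20 were higher, against 4.62%, 3.78% and 5.47%, and 0, 6 and 1 were lower, against 25.6%, 9.57% and 4.84%.

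Among the families, the 4 IFIT genes held the most lower pairs with each treatment. Their products bind viral RNA that lacks the host cap and hold it out of translation. They lie together on chromosome 19, as Ifit1 (ENSMUSG00000034459), Ifit2 (ENSMUSG00000045932), Ifit3 (ENSMUSG00000074896) and Ifit3b (ENSMUSG00000062488). Of 21 IFIT gene and subtype pairs tested with ADU-S100, 14 were lower and none higher, against 8.43% of all gene and subtype pairs lower and 4.49% higher. Of 24 with anti-LTβR, 14 were lower and 1 higher, against 4.34% and 4.5%, and of 22 with the combination, 15 were lower and none higher, against 4.07% and 4.77%.

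The IFIT genes summed to 195, 108, 112 and 98.1 CPM in C1q macrophages. The log2 differences from untreated were -0.86 (-0.95 to -0.77), -0.80 (-0.89 to -0.71) and -0.99 (-1.09 to -0.90). In monocytes the sum was 340.2, 182, 128 and 179 CPM, or -0.90 (-1.01 to -0.80), -1.41 (-1.51 to -1.30) and -0.92 (-1.03 to -0.82). In both subtypes every treated library lay below the untreated library, and in monocytes the anti-LTβR library lay lowest.

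In cDC2 the IFIT sum was 280.3, 155, 198 and 144 CPM, or -0.85 (-1.04 to -0.66), -0.50 (-0.66 to -0.34) and -0.96 (-1.16 to -0.77). With each cell assigned by its own markers the anti-LTβR and combination values in cDC2 were 0.89 and 0.72, so the direction there depended on how cells were assigned. In neutrophils the sum was 255, 213, 261 and 235 CPM and in T cells 113, 87.4, 88.3 and 86.2 CPM, under 1.5-fold from untreated in each treatment. In NK cells it was 62, 29.7, 41 and 38.5 CPM, lower than untreated in each treated library.

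Ifit2 was lower in 4 of 7 subtypes with ADU-S100 and in 5 of 8 with anti-LTβR and with the combination. It stood at 112, 59.8, 66.3 and 54.9 CPM in C1q macrophages, 202, 106, 74.1 and 101 in monocytes and 153, 88.9, 101 and 81.9 in cDC2. The untreated library was highest in each of these. In cDC2 the anti-LTβR value turned to 0.11 with thinned cells. Ifit2 was also lower in NK cells with all treatments (39, 18.6, 20.9 and 23.5 CPM), in cDC1 with anti-LTβR (48.9 against 30.5 CPM) and in neutrophils with the combination (72.5 against 46.9 CPM).

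Ifit3 and its near copy Ifit3b were lower in much the same subtypes. Ifit3 was 48.5, 27.6, 24.1 and 25.8 CPM in C1q macrophages, 80.7, 39.1, 28 and 42.7 in monocytes and 57.8, 31, 50.4 and 33 in cDC2. Its log2 difference was -1.05 (-1.27 to -0.82) with ADU-S100 and -1.53 (-1.75 to -1.31) with anti-LTβR in monocytes. In T cells Ifit3 was lower with anti-LTβR, at 32 against 19.96 CPM.

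Ifit3b was 6.95, 3.01, 3.63 and 3.22 CPM in C1q macrophages and 9.74, 5.35, 2.6 and 6.06 in monocytes. It had the most negative difference of any tested member with ADU-S100 in C1q macrophages (-1.21) and with anti-LTβR in monocytes (-1.91). The value for C1q macrophages with ADU-S100 rests on few UMIs and turned to 0.32 with thinned cells. In cDC2 Ifit3b was 18.1, 7.19, 7.06 and 7.91 CPM, lower with all treatments. In neutrophils it was 33.5, 21.8, 19.3 and 22.8 CPM, lower with either single agent.

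Ifit1 was lower in C1q macrophages and monocytes with every treatment and in cDC2 with ADU-S100 and the combination, but not in neutrophils. It was 27.8, 17.2, 18.1 and 14.2 CPM in C1q macrophages, 47.5, 31.1, 23.6 and 29.9 in monocytes and 51.3, 28.3, 40.4 and 20.9 in cDC2. In cDC2 the combination gave the most negative difference, -1.29 (-1.82 to -0.79). In neutrophils Ifit1 was 76.8, 89.1, 117 and 101 CPM, lowest in the untreated library and higher with anti-LTβR by 0.60 (0.20 to 1.01) on the log2 scale. In T cells it was 33, 23.2, 33 and 21.3 CPM and was counted as lower with the combination, a difference that turned to 0.05 with thinned cells.

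**Figure D4:**
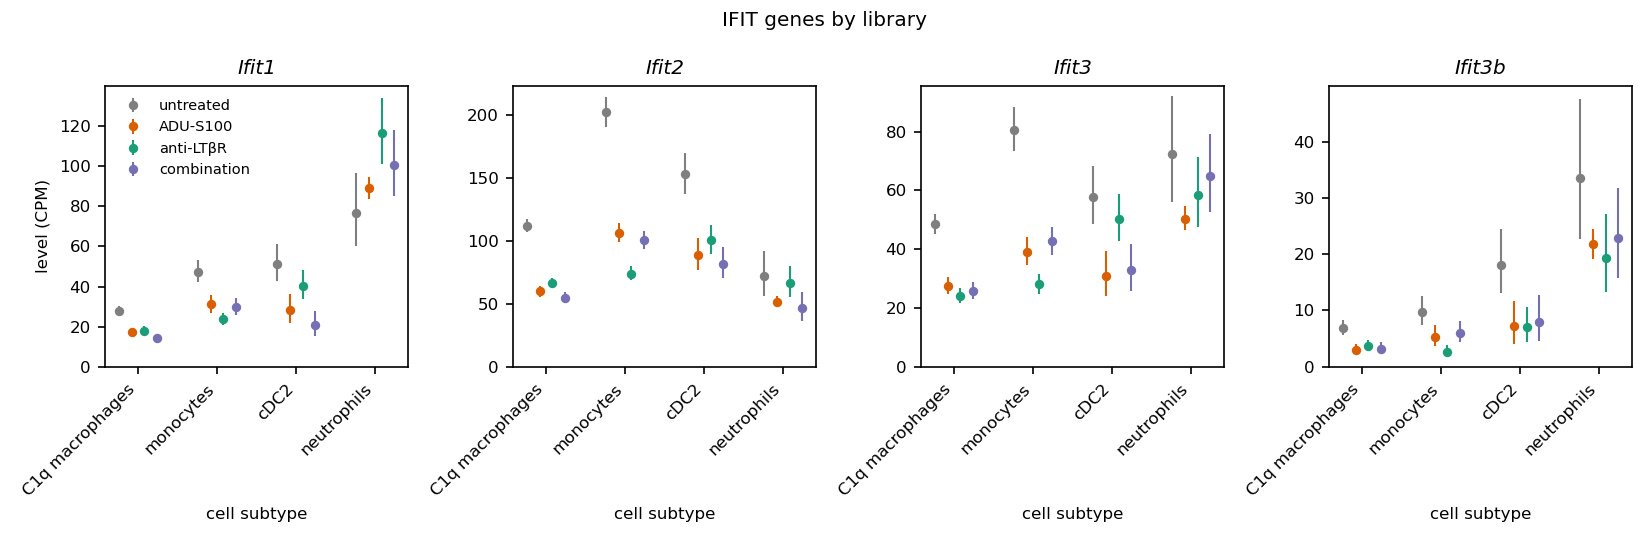
Level in CPM (y axis) of the 4 IFIT genes (panels) by library (color) in 4 subtypes (x axis). Each point is 1 library with its exact 95% counting interval. In monocytes and C1q macrophages the gray untreated point lies above the 3 others for each gene, while for Ifit1 in neutrophils the untreated point is the lowest.

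The share of cells with an IFIT UMI was also lower in C1q macrophages and monocytes. Each cell was thinned to 1000 UMIs, since a deeper cell shows more genes, and shallower cells (2.61% to 10.5% of a library's C1q macrophages or monocytes) were left out. The share of C1q macrophages with an IFIT UMI was 12.4% (10.9 to 14.1), 8.16% (6.74 to 9.78), 7.46% (6.37 to 8.67) and 7.79% (6.78 to 8.91). In monocytes it was 17.8% (15.3 to 20.5), 10.9% (8.94 to 13.1), 8.92% (7.68 to 10.3) and 11% (9.75 to 12.4). Neutrophils gave 11.2%, 10.5%, 10.8% and 12.1%, with 46.8% of those in the combination library too shallow. T cells gave 7.62%, 6.86%, 6.97% and 6.3%. The intervals of all libraries overlapped in each of these. Plasma cells, whose IFIT levels were low, gave 2.02%, 0%, 1.1% and 0.444% at the same depth, where 0 of 65 cells allows a share of up to 5.52% by the exact interval.

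Without thinning the shares were 45.4%, 33.9%, 27.6% and 23.4% in C1q macrophages, 40.8%, 26.7%, 20.7% and 21.2% in monocytes and 6.6%, 2.99%, 3.74% and 3.46% in plasma cells. Depth per cell differed between the libraries, so these shares are not compared. The median number of member UMIs in a thinned cell was 6, 5, 4 and 4 in C1q macrophages and 8, 6, 6 and 7 in monocytes.

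The clusters of C1q macrophages and of monocytes shared the direction of their subtype. Among C1q macrophages, the largest cluster, led by Ch25h and C1qa, had IFIT log2 differences of -0.82, -0.38 and -0.80. A cluster led by Retnla, Lyz1 and Folr2 had -0.69, -2.40 and -1.80, at 272, 168, 51.5 and 78 CPM. It held 228, 171, 846 and 501 cells, so its weight in the subtype differed between libraries. At a resolution of 2, a cluster led by Retnla and Lyz1 stood apart and was named cDC2, with 27, 15, 193 and 219 cells. The part of such a mix in these IFIT differences was not tested. The remaining cluster, led by the division genes Birc5 and Ube2c, had -1.04, -0.80 and -1.25. The monocyte clusters led by Ly6i and Ccr2 (-1.05, -1.25 and -0.93) and by Ace and Adgre4 (-0.53, -1.68 and -1.08) were both lower in all treatments.

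The neutrophils formed a pair of clusters that went opposite ways. The cluster led by Rps6ka2, Hcar2 and Ccl3 had an IFIT level of 164, 222, 288 and 281 CPM (0.44, 0.81 and 0.77 on the log2 scale). The cluster led by Mmp9 and Cxcr2, genes of mature neutrophils, had 295, 200.1, 242 and 208 CPM (-0.56, -0.28 and -0.51). All members summed showed the same split, at 5713, 6947, 8410 and 9156 CPM in the former and 8740, 7825, 6940 and 6983 CPM in the latter. The former held 160, 3110, 437 and 482 cells and the latter 331, 2181, 526 and 803, so untreated neutrophils were mostly of the latter and ADU-S100 neutrophils mostly of the former. The values for all neutrophils above mix these clusters in different proportions.

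T cell clusters also split, and the values for all T cells mix them in proportions that differ between libraries. A cluster led by Nsg2, Ifngas1 and Klra1 had Tcf7, Klra6, Trgc4, Sidt1, Lef1, Cd160 and Ifi208 as its other leading genes. It held 271, 96.8, 113 and 90.01 CPM of IFIT genes (-1.49, -1.26 and -1.59) in 234, 181, 807 and 698 cells. The cluster led by Cd40lg and Cd4 had 128, 72.1, 74.6 and 85.9 CPM. In the cluster led by Cd8a, Lag3 and Pdcd1, the IFIT level was 81.2, 124, 90.6 and 85.5 CPM, and in the cluster led by Foxp3, the factor of regulatory T cells, it was 62.5, 83.5, 78.5 and 146 CPM. All treated libraries lay below untreated in the former pair and above it in the latter pair, where the interval lay on one side of 0 for ADU-S100 in the Cd8a cluster and the combination in the Foxp3 cluster. Among NK cells, the cluster led by Gzma and Ncr1 had 60.8, 31.6, 43.3 and 22.2 CPM and the cluster led by Clnk 65.2, 24.7, 31.5 and 80.2 CPM.

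**Figure D5:**
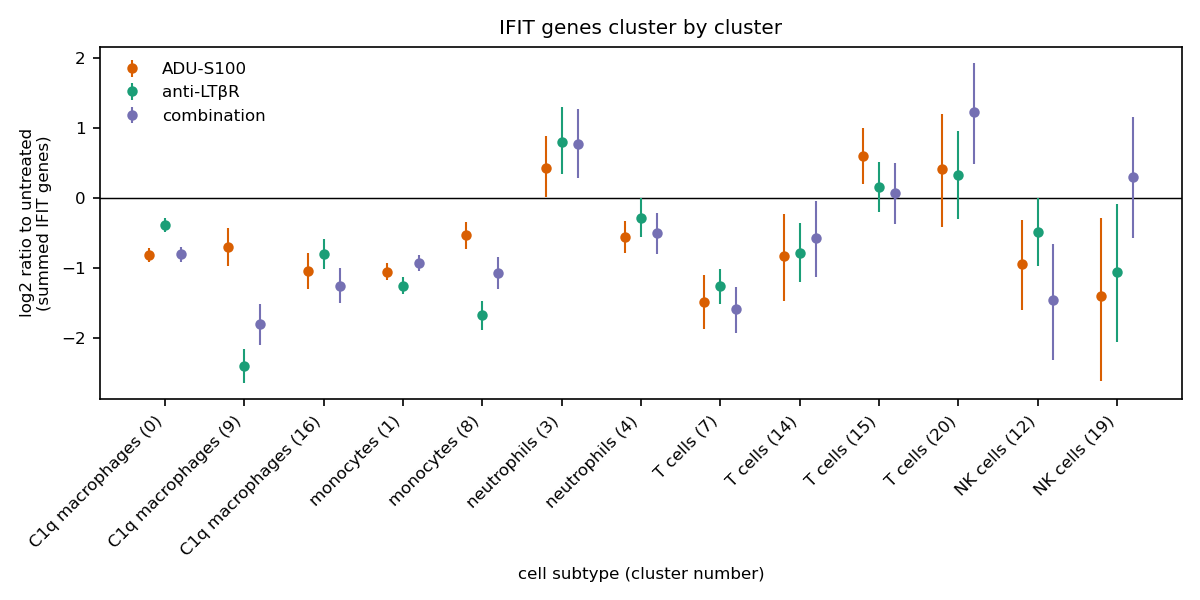
Log2 ratio to untreated of the summed IFIT genes (y axis) in clusters of C1q macrophages, monocytes, neutrophils, T cells and NK cells (x axis, subtype and cluster number), with exact 95% counting intervals and treatments in color. Clusters of C1q macrophages and monocytes lie below 0 for all treatments, while neutrophil cluster 3 lies above 0 and neutrophil cluster 4 below.

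Mx1 and Mx2 encode dynamin-like proteins that trap viral components. With ADU-S100, 7 of 11 of their pairs were lower and none higher, against 8.43% and 4.49% of all pairs. Anti-LTβR gave 6 of 12 lower and none higher, against 4.34% and 4.5%. The combination gave 3 of 11 lower and 1 higher, against 4.07% and 4.77%. Mx1 was 59.9, 32.1, 38.4 and 31.4 CPM in C1q macrophages, 107, 54.1, 51.1 and 59.2 in monocytes, 93.8, 42.8, 53.4 and 62.8 in cDC1 and 75, 46.7, 52.9 and 58.1 in cDC2, each lower with ADU-S100. Mature DCs gave 75, 31.6, 87.1 and 143 CPM, so Mx1 there was lower with ADU-S100, at -1.25 (-1.99 to -0.55), and higher with the combination by 0.93 (0.43 to 1.44) on the log2 scale. In NK cells, at 30.6, 22.8, 16.2 and 31 CPM, Mx1 was lower with anti-LTβR. In monocytes Mx2, at 32.5, 17.8, 20.9 and 20.1 CPM, was lower with every treatment.

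Cmpk2, a mitochondrial nucleotide kinase, and Rsad2, whose product makes an antiviral nucleotide, start on opposite strands of chromosome 12. With ADU-S100, 6 of 10 pairs of this group were lower and none higher, against 8.43% and 4.49% of all pairs, and Cmpk2 was lower in all 5 subtypes tested. Anti-LTβR gave 3 of 12 pairs lower and none higher, against 4.34% and 4.5%. The combination gave 4 of 11 lower and 1 higher, against 4.07% and 4.77%. Cmpk2 stood at 24.2, 13.5, 14.3 and 11.9 CPM in C1q macrophages, 38.4, 14.9, 18.3 and 27.7 in monocytes, 61.6, 29.1, 73.2 and 69 in neutrophils, 21.6, 10.3, 14.8 and 15.8 in cDC2 and 17.4, 9.84, 15.1 and 8.96 in T cells, where the difference turned to 0.08 with thinned cells. In neutrophils the ADU-S100 library was the lowest and those with anti-LTβR lay above untreated. In neutrophils Rsad2 was 597, 604, 871 and 900.4 CPM, higher with the combination by 0.59 (0.45 to 0.74). In monocytes it was 159, 92.6, 74.2 and 99.99 CPM, lower with every treatment, though the ADU-S100 value turned to 0.21 with doublets kept, and in NK cells it was 11.1, 18.6, 18.2 and 14.1 CPM.

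The ISG15 system consists of Isg15 itself, the ligase Herc6 that attaches it, and the protease Usp18 that removes it and also restrains the interferon receptor. Isg15 in monocytes was 604, 468, 307 and 421 CPM, lower with anti-LTβR, at -0.98 (-1.05 to -0.90). In C1q macrophages it was 316, 280, 271 and 306 CPM, under 1.5-fold from untreated in each treatment. Isg15 was higher in mature DCs with anti-LTβR, at 233, 312, 356 and 337 CPM, and in NK cells with ADU-S100, at 34.8, 52.4, 37.5 and 42.3 CPM, where it turned to -0.13 by the markers of each cell. In plasma cells it was 47.2, 124, 26 and 41.7 CPM, higher with ADU-S100 by 1.40 (0.90 to 1.92) and lower with anti-LTβR, at -0.86 (-1.38 to -0.32), which turned to 0.07 by the markers of each cell. The sum of 10 neutrophil markers in plasma cells was 119.5, 549, 59 and 289 CPM, highest in the same library as Isg15, which stood at 1749 CPM in the neutrophils of that library. In NK cells that sum was 12.5, 266, 41.4 and 129.7 CPM, also highest with ADU-S100. The part of these markers in the Isg15 results was not tested. The plasma cells joined a deep cluster (median 9556 UMIs; 46, 43, 270 and 481 cells) and a shallow cluster (median 1270.5 UMIs; 60, 24, 131 and 357 cells), so all plasma cell values mix these in different proportions.

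Usp18 was lower with ADU-S100 and with anti-LTβR in monocytes (57.6, 33.7, 32.7 and 40.2 CPM). In cDC1 it was 62.8, 42.8, 39.2 and 32.8 CPM, lower with anti-LTβR and the combination, and in C1q macrophages 39.1, 32.2, 28.9 and 23.8 CPM, lower with the combination. In pDCs it was 45.7, 119.6 and 34.8 CPM in the first 3 libraries, higher with ADU-S100 by 1.39 (0.46 to 2.41). The neutrophil markers in the pDCs summed to 56.2, 2598, 283 and 329.9 CPM, and their part was not tested. Herc6 was lower with anti-LTβR in monocytes (164, 104, 96.8 and 113 CPM), cDC1, NK cells (152, 119, 97.8 and 183 CPM) and plasma cells (40.9, 36.2, 20.6 and 31.6 CPM). In cDC1, at 95.8, 59.4, 62.1 and 44.3 CPM, it was lower with all treatments.

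The OAS family makes or resembles enzymes whose product activates RNase L, which degrades RNA. Oasl1, known to limit translation of Irf7, was higher with anti-LTβR in 3 of 8 subtypes and lower in 1. It was 161, 74.5, 260.4 and 128 CPM in cDC1, 35.4, 34.6, 54.2 and 60.9 in cDC2 and 54.7, 122, 121 and 54.6 in mature DCs, each higher with anti-LTβR. In monocytes it was 79.1, 63.9, 52.3 and 57 CPM, lower with anti-LTβR. With ADU-S100, Oasl1 was lower in cDC1, at -1.11 (-1.57 to -0.68), and higher in mature DCs, by 1.16 (0.66 to 1.68). These DC subtypes thus differed in direction for Oasl1 with ADU-S100 and shared it with anti-LTβR.

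Oas3 was lower with ADU-S100 in monocytes (91.1, 56.3, 69.7 and 83.6 CPM), neutrophils (149, 94.2, 158 and 133 CPM) and NK cells (26.5, 10.3, 16.6 and 23.5 CPM). In T cells it was instead higher with all treatments, at 20.6, 33.5, 31.1 and 35.8 CPM, or 0.70, 0.59 and 0.79. Oas2 was lower in T cells with anti-LTβR (5.75, 7.48, 3.17 and 8.65 CPM) and in cDC2 with the combination (69, 57.9, 55.8 and 44.2 CPM). In monocytes Oas2 was 78.4, 62.9, 76 and 70.4 CPM, the smallest of the negative differences with anti-LTβR there. Oasl2 was lower in monocytes with anti-LTβR (265, 179.8, 176 and 189.5 CPM) and higher in mature DCs with ADU-S100 (93.3, 146, 131 and 70.5 CPM). Oas1a, counted against untreated in no subtype, was 99.4, 88.4, 97.3 and 95.6 CPM in C1q macrophages and 134, 113, 125 and 131 CPM in monocytes.

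The transcription factors were counted in few subtypes. Irf7, the factor that widens the interferon response, was lower with anti-LTβR in C1q macrophages (207, 177, 136 and 148 CPM) and monocytes (307, 223, 169 and 237 CPM), and with ADU-S100 in neutrophils (158, 98.7, 135 and 149.5 CPM). In mature DCs it was 40.5, 53.6, 63.5 and 72.8 CPM, higher with anti-LTβR and the combination, the latter turning to -0.03 with thinned cells. Stat2, a subunit of the main ISG factor, was lower with ADU-S100 in monocytes (195, 128, 141 and 162 CPM), and with anti-LTβR in plasma cells (47.2, 34.2, 30.9 and 43.3 CPM).

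Of 39 pairs of the RNA and DNA sensors, 1, 1 and 3 were higher and 2, 3 and 2 lower in the 3 treatments, against 4.49%, 4.5% and 4.77% of all pairs higher and 8.43%, 4.34% and 4.07% lower. Zbp1, a sensor of Z-form nucleic acid, was lower with anti-LTβR in monocytes (327, 229, 214 and 242 CPM), neutrophils (178, 116, 107 and 115 CPM) and cDC1 (106, 99.4, 54.5 and 85.7 CPM). In neutrophils it was lower with all treatments. Ifih1, which encodes the RNA sensor MDA5, was 39.7, 39.3, 39.8 and 81.7 CPM in NK cells, higher with the combination by 1.04 (0.54 to 1.55), while the share of NK cells with an Ifih1 UMI was 10.9%, 11.9%, 9.67% and 6.73%, shares that depend on the depth per cell, which was lowest in the combination library. Rigi, which encodes the RNA sensor RIG-I, was 21, 30.3, 39.2 and 38.7 CPM in plasma cells, higher with anti-LTβR and the combination.

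Ifi204, a DNA sensor that acts with STING, was 23.1, 41.1, 23.2 and 30.4 CPM in plasma cells and 83.9, 52.5, 56.6 and 64.2 CPM in cDC1, higher in the former and lower in the latter with ADU-S100. In cDC2 it was 131, 146, 166 and 127 CPM and in NK cells 25.1, 25.5, 26.3 and 42.3 CPM, where it was higher with the combination. Dhx58, which encodes LGP2, a regulator of the RNA sensors, was counted in no subtype, with 31.7, 38.6, 38.1 and 37.1 CPM in cDC1 and 75.5, 55.4, 54.4 and 67.5 CPM in monocytes.

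The membrane proteins Ifitm3 and Bst2 were higher in 4 and lower in 1 of 20 pairs with ADU-S100, against 4.49% and 8.43% of all pairs. Anti-LTβR gave 1 higher and 3 lower of 19, against 4.5% and 4.34%. The combination gave 2 higher and 1 lower of 18, against 4.77% and 4.07%. Ifitm3, which blocks fusion of viruses with endosomes, was 668, 1231, 642 and 569.7 CPM in cDC1, 348, 595, 422 and 496 in mature DCs and 46.7, 74.5, 64.5 and 85.5 in NK cells. The log2 differences with ADU-S100 were 0.88 (0.75 to 1.01), 0.78 (0.57 to 0.98) and 0.68 (0.22 to 1.14). Ifitm3 was also higher in NK cells with the combination, by 0.87 (0.40 to 1.35). It was lower in plasma cells with anti-LTβR, at -0.67 (-0.92 to -0.41), where it stood at 184.5, 142.8, 116 and 150.6 CPM. In C1q macrophages, at 1468, 1453, 1338 and 1223 CPM, and monocytes, at 2911, 2762, 2602 and 2590 CPM, all treated libraries lay within 1.5-fold of untreated.

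Neutrophil markers were also summed in these DCs and in NK cells. All 10 were found, and their sum was 104, 1411, 440.1 and 234 CPM in cDC1, 199.7, 1518, 483 and 412 in mature DCs and 12.5, 266, 41.4 and 129.7 in NK cells, highest with ADU-S100 in each. Ifitm3 was highest with ADU-S100 in cDC1 and mature DCs, but with the combination in NK cells. Neutrophils were 5291 of the 13443 kept cells of that library and 491 of 7512 in the untreated library. In neutrophils of the ADU-S100 library the Ifitm3 level was 1341 CPM and the marker sum 70060 CPM. The part of neutrophil RNA in the Ifitm3 result was not tested.

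Bst2, which tethers budding viruses, was lower in neutrophils with all treatments, at 75.7, 37.5, 28.7 and 38.2 CPM. In mature DCs it was higher with all treatments, at 104, 165, 183 and 162 CPM, or 0.66, 0.81 and 0.63, but -0.07 with ADU-S100 once cells were thinned. The C1q macrophage markers in mature DCs summed to 159, 679, 156 and 1360 CPM. Their part in the Bst2 result was not tested. In monocytes Bst2 was 347, 270.3, 229.8 and 289.6 CPM, lower with anti-LTβR, and in C1q macrophages it was 664, 718, 562 and 497 CPM and was counted in no treatment.

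Of the other members, Ifi27l2a, whose product has been placed in mitochondria and at the nuclear envelope, was lower with anti-LTβR and with the combination in the same 4 subtypes. It was 802, 579.5, 482 and 531 CPM in T cells, 529, 391, 339.7 and 345 in neutrophils, 230, 202, 104 and 138 in cDC1 and 218, 221, 108 and 134 in plasma cells. In NK cells, at 20.2, 16.6, 24.3 and 37.6 CPM, it was higher with the combination, but by the markers of each cell it was -0.43. In mature DCs it was 178, 216, 124 and 132 CPM. Xaf1, an antagonist of the apoptosis inhibitor XIAP, was lower with the combination in neutrophils (71.4, 54.8, 46.9 and 46.3 CPM), cDC2 (133, 106, 99.1 and 87.4 CPM) and NK cells (82.9, 47.6, 66.8 and 47.9 CPM).

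Slfn5, a schlafen protein, was lower with ADU-S100 in monocytes (542, 355, 482 and 482 CPM) and neutrophils (257, 170.5, 228 and 227 CPM). In pDCs it was 91.3, 90.4 and 169.7 CPM in the first 3 libraries, higher with anti-LTβR by 0.89 (0.14 to 1.67). Rtp4, a restraint on RNA viruses, was lower in monocytes with every treatment (166, 100.5, 94.4 and 108 CPM). Ifi44 was lower in NK cells with anti-LTβR, at 26.5, 20.7, 11.6 and 16.9 CPM or -1.19 (-1.93 to -0.46), and stood at 38, 34.4, 34.7 and 41.2 CPM in C1q macrophages and 13.4, 13.2, 8.32 and 15.3 CPM in monocytes, lower there with anti-LTβR. Parp14, an ADP-ribosyltransferase, was counted in plasma cells with anti-LTβR alone, at 44, 27.4, 25.3 and 34.1 CPM, a difference that turned to 0.70 with cells thinned to 1000 UMIs. Trim30a, a restraint on inflammatory signaling, was counted in no subtype, with 266, 228, 257 and 246 CPM in C1q macrophages and 386, 277, 354 and 367 CPM in monocytes.

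The combination was also set against each single agent. Against ADU-S100, 15 of 228 pairs were higher and 7 lower (6.58% and 3.07%, against 8.36% and 3.54% of all genes). Cmpk2 was among the higher ones in monocytes, by 0.90 (0.54 to 1.26), and in neutrophils, by 1.25 (0.92 to 1.57), while Ifitm3 was lower in cDC1, at -1.11 (-1.29 to -0.94), and in cDC2, at -0.68 (-0.74 to -0.63). Against anti-LTβR, 21 of 243 pairs were higher and 7 lower (8.64% and 2.88%, against 3.59% and 2.85%). In B cells 10 members were tested and none was higher or lower, against 3.75% and 5.1% of all genes. In plasma cells 9 of 20 members were higher and none lower, against 8.56% and 1.63% of all genes there. Of these, Rsad2 was 6.29, 7.83, 2.32 and 13.6 CPM in plasma cells. Mx1, also among the 9, turned to -1.89 with thinned cells. In plasma cells the neutrophil markers summed to 119.5, 549, 59 and 289 CPM and those of C1q macrophages to 1325, 889, 409 and 967 CPM, both higher in the combination than in the anti-LTβR library, and their part in this result was not tested. All of these comparisons share libraries with those above.

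Transcripts of type I interferons were rare at this time. Over all kept cells, Ifnb1 gave 21, 103, 49 and 38 UMIs in 9, 21, 16 and 17 cells. Ifna1 gave 1 UMI and Ifna4 gave 2 in the ADU-S100 library and none elsewhere, and Ifna2 gave none. Ifng, the type II interferon made by T and NK cells, had enough UMIs to be compared in 2 subtypes and was higher in NK cells with the combination. Of a list of 14 genes of interferon signaling (receptors, Jak kinases, Irf factors, Socs1, Sting1, Cgas and Tbk1), 8 of 123 pairs were higher and 8 lower with ADU-S100, 1 and 3 of 123 with anti-LTβR, and 1 and 2 of 116 with the combination. Of all pairs 8.43%, 4.34% and 4.07% were lower and 4.49%, 4.5% and 4.77% higher. Socs1, an inhibitor of Jak signaling, was among the higher ones with ADU-S100 in cDC2 and plasma cells.

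Of a list of 10 genes that respond mainly to interferon gamma, more pairs were lower than higher. With ADU-S100, 3 pairs were higher and 16 lower of 72, with anti-LTβR 1 and 16 of 74, and with the combination 2 and 12 of 73. Of all pairs 4.49%, 4.5% and 4.77% were higher and 8.43%, 4.34% and 4.07% lower. Cxcl9, a chemokine that attracts T cells, was lower with ADU-S100 in neutrophils, mature DCs, T cells and plasma cells. Iigp1, a GTPase that acts on pathogen vacuoles, was lower with ADU-S100 in monocytes, cDC1 and T cells.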

How the data were processed

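Leukocytes were sorted as live CD45+ cells from subcutaneous KPC tumors, 10 pooled per group, and 4 libraries of 5′ single-cell RNA sequencing were analysed, from the second of 2 experiments. The first was not analysed here. The deposited matrices hold raw UMI counts per gene and cell, made by the authors with Cell Ranger and the mm10 genome. The labels and methods name version 7.1.0, while the file headers name 8.0.1. The labels and the methods also name different versions of the 5′ kit.

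Cells with 300 to 5000 genes and at most 6% mitochondrial UMIs were kept. Doublets were scored with Scrublet in each library, and the highest scores were removed at a rate of 0.4% for each 1000 cells. Counts were scaled to 10000 per cell, and 2000 variable genes without the members, other interferon genes, ribosomal and mitochondrial genes and the variable segments of antigen receptors gave 30 components, a graph of 20 neighbors and Leiden clusters at a resolution of 1 (Python 3.11.15, numpy 2.4.6, scanpy 1.11.5, leidenalg 0.10.2, igraph 0.11.9, scikit-learn 1.9.0). A cluster was named when at least 3 markers of 1 list were detected in 10% of its cells and 2-fold above the other cells, with 0.5 of the list required where none was among the cluster's 10 leading genes, and when no other list had more markers among those 10. A shallow cluster with no own marker among the 10 stayed unnamed. These limits were set after seeing the data, and 6 clusters stayed unnamed. Of the named subtypes, 1 macrophage subtype is not reported here.

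UMIs were summed per subtype and library. Levels carry exact Poisson intervals and log2 ratios exact binomial intervals of 95% (scipy 1.17.1), which cover counting error only. Subtypes with at least 50 cells in both libraries and genes with at least 50 UMIs over both were compared, and a call needed a 1.5-fold difference with an interval on one side of 1. No p-value was computed. Values in every library are given for members called in the same direction in at least 3 subtypes with 1 treatment and for the largest positive and negative difference in each subtype and treatment, and other genes were named after their values were seen. The members and lists were chosen with earlier results of these data known. The calling step was tested on simulated data. Alternatives changed the doublet removal, cell assignment, clustering, filters, depth, scaling and fold limit, and totals without immunoglobulin genes were added after seeing the data. Figures were drawn with matplotlib 3.10.9.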

Additional observations from a re-analysis of the deposited data

Results flagged for a closer look

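Some genes went opposite ways in different subtypes of the same pair of libraries, by at least 1.5-fold each and with both counting intervals on their own side of 0. With 1 library per group, these differences between subtypes were not tested. The values are the gap between the log2 differences from untreated of the named subtypes, each followed by those differences, and for each gene and treatment the pair of subtypes with the widest gap is given.

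Between the ADU-S100 and untreated libraries, Ifi204 differed by 1.51 between plasma cells (0.83) and cDC1 (-0.68) and Usp18 differed by 2.16 between pDCs (1.39) and monocytes (-0.77). Oas3 differed by 2.05 between T cells (0.70) and NK cells (-1.35) and Oasl1 differed by 2.27 between mature DCs (1.16) and cDC1 (-1.11). Bst2 differed by 1.67 between mature DCs (0.66) and neutrophils (-1.01).

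Between the anti-LTβR and untreated libraries, Irf7 differed by 1.51 between mature DCs (0.65) and monocytes (-0.86) and Isg15 differed by 1.58 between mature DCs (0.61) and monocytes (-0.98). Ifit1 differed by 1.61 between neutrophils (0.60) and monocytes (-1.01). Oas3 differed by 1.26 between T cells (0.59) and NK cells (-0.67) and Oasl1 differed by 1.74 between mature DCs (1.14) and monocytes (-0.60). Bst2 differed by 2.21 between mature DCs (0.81) and neutrophils (-1.40).

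Between the combination and untreated libraries, Mx1 differed by 1.86 between mature DCs (0.93) and C1q macrophages (-0.93) and Rsad2 differed by 1.32 between neutrophils (0.59) and C1q macrophages (-0.73). Bst2 differed by 1.62 between mature DCs (0.63) and neutrophils (-0.99) and Ifi27l2a differed by 1.63 between NK cells (0.90) and cDC1 (-0.73).

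Mature DCs were the higher subtype for Bst2 with each treatment, and monocytes the lower subtype in most cases with anti-LTβR. Where a value also reversed with the assignment or the thinning of cells, as for Oasl1, Ifi27l2a and Bst2, the altered value is among the processing alternatives.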

How the results depend on the processing

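With 1 library per group, no value has a spread between tumors, and small levels in mature DCs, pDCs, cDC1 and plasma cells rest on few cells. The median depth per cell was lowest in the combination library. No paired analysis was possible because each group is 1 library and carries no replicate number. The summed IFIT levels in C1q macrophages and monocytes kept their direction under every alternative tried, while that of cDC2 changed direction with the way cells were assigned and with thinning, that of neutrophils with centering and that of T cells with doublets kept. The cause of each difference below was not tested.

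Of 178 counted member and subtype values, all against untreated except those of plasma cells with the combination against anti-LTβR, 42 stayed past the limit at 2-fold and 136 did not, by construction. With doublets kept, 124 stayed past the limit, 52 did not and 2 reversed. With each cell assigned by its own markers, 93 of 174 stayed, 67 did not and 14 reversed. With each cell thinned to 1000 UMIs, where fewer UMIs remain, 64 stayed, 105 did not and 9 reversed. With interferon genes allowed into the clustering 146 stayed, with a resolution of 2 148, without the mitochondrial limit 162, centered on the median of all genes 151, without the limit on low counts 178 and without immunoglobulin genes in the totals 172, and none of these reversed.

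The counts of pairs moved by over 1.5 times in these cases. They are given without the shares of all genes at the same settings, so no excess over all genes is read from them. At 2-fold, 3 pairs were higher and 13 lower with ADU-S100, 1 and 13 with anti-LTβR, 1 and 7 with the combination, 7 and 4 for the combination against ADU-S100, and 6 and 2 against anti-LTβR. Thinned, 5 were higher and 24 lower with ADU-S100, 5 and 24 with anti-LTβR, 21 lower with the combination, 7 higher and 3 lower for the combination against ADU-S100, and 6 and 2 against anti-LTβR. By markers of each cell, 3 were higher with ADU-S100 and 13 for the combination against anti-LTβR. With interferon genes allowed 11 were lower for the combination against ADU-S100, and centering gave 12 lower. A resolution of 2 gave 14 lower for the combination against anti-LTβR, no mitochondrial limit gave 11, doublets kept 12 and no limit on low counts 13.

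The mean log2 difference of the summed level over subtypes was -0.09 with ADU-S100, -0.23 with anti-LTβR, -0.17 with the combination, -0.07 for the combination against ADU-S100 and 0.07 against anti-LTβR. In the same order, where it moved, it was -0.1352, -0.1853, -0.1367 and -0.001426 with doublets kept. It was -0.1588, -0.2715, -0.2262 and, against anti-LTβR, 0.0453 by markers of each cell. With a resolution of 2 it was -0.06886 with ADU-S100, -0.1934 with anti-LTβR and 0.03365 against anti-LTβR. With interferon genes allowed it was -0.1941 with the combination, -0.1009 against ADU-S100 and 0.03266 against anti-LTβR. Without the mitochondrial limit it was -0.2015 with anti-LTβR and 0.01877 against anti-LTβR. Thinned it was 0.003172, reversed, for ADU-S100, -0.1624, -0.06573 and, against anti-LTβR, 0.09672. Centered it was 0.0307, reversed, for ADU-S100, -0.2055, -0.1262 and, against ADU-S100, -0.1531. Without the 4 most abundant members it was -0.2377, -0.199, -0.1413 and, reversed against ADU-S100, 0.09641. As a mean of the shares of single cells it was -0.03292, -0.1921, -0.1025 and, against anti-LTβR, 0.08963.

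Values that reversed within a subtype are log2 differences from untreated unless another library is named. Centered, the sum with ADU-S100 was 0.2044 in neutrophils and 0.005638 in cDC2, the IFIT sum in neutrophils was 0.04147, and the sum in neutrophils with anti-LTβR was 0.09405. With doublets kept, the IFIT sum of T cells with ADU-S100 was 0.0745, the sum of pDCs with anti-LTβR was -0.04412, Rsad2 in monocytes with ADU-S100 was 0.207 and Ifit1 in T cells with the combination was 0.001318. Without the 4 most abundant members the sum was 0.07515 in pDCs with ADU-S100, 0.07318 in neutrophils with anti-LTβR and 0.1151 in plasma cells with the combination, and as a mean of single-cell shares that of plasma cells was 0.1766. With interferon genes allowed, the sum in mature DCs was -0.03116 with anti-LTβR and -0.0214 with the combination.

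By markers of each cell with ADU-S100, Ifit1 was 0.5622 and Ifit3b 0.3536 in cDC2, and Isg15 was -0.13 in NK cells. With anti-LTβR the sum was -0.1376 in mature DCs, the IFIT sum was 0.8853, Ifit2 1.07 and Ifit3b 0.1592 in cDC2, Oasl1 was 0.243, Rsad2 0.3633 and Ifi44 0.2131 in monocytes, and Isg15 was 0.06863 in plasma cells. With the combination the sum was -0.06101 in mature DCs and 0.2114 in plasma cells, the IFIT sum was 0.7201, Ifit1 0.5628, Ifit2 1.194, Ifit3b 1.148 and Xaf1 0.3556 in cDC2, and Ifi27l2a was -0.4254 in NK cells. Thinned, the sum was -0.1691 in pDCs with anti-LTβR and 0.2522 in plasma cells with the combination, and the IFIT sum of cDC2 with anti-LTβR was 0.04752. Thinned single genes were Ifit3b in C1q macrophages (0.3248), Bst2 in mature DCs (-0.06529) and Cmpk2 in T cells (0.07855) with ADU-S100. With anti-LTβR they were Mx2 in monocytes (0.1323), Ifit2 in cDC2 (0.1112) and Parp14 in plasma cells (0.7026). With the combination they were Irf7 in mature DCs (-0.02801) and Ifit1 in T cells (0.05197), and Mx1 in plasma cells was -1.887 against anti-LTβR.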

Other observations

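Cells outside the compared subtypes also carried ISGs. The cluster with markers of non-leukocytes, led by Hmga2 and Timp3, had an IFIT level of 73.1, 97.2, 121 and 166.5 CPM in the order untreated, ADU-S100, anti-LTβR and combination, from 149, 224, 202 and 248 cells. The log2 differences from untreated were 0.41 (0.03 to 0.80), 0.73 (0.38 to 1.09) and 1.19 (0.85 to 1.54), so all treated libraries lay above untreated, with the combination highest. All 32 members summed there to 2574, 3261, 3713 and 4469 CPM. Whether these cells are tumor cells was not tested.

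An unnamed cluster led by Plcb1, Nrg1 and Met, with 454, 838, 789 and 1306 cells, had an IFIT level of 258, 59.9, 137.5 and 112 CPM. The differences from untreated were -2.11 (-2.41 to -1.82), -0.91 (-1.17 to -0.65) and -1.20 (-1.46 to -0.94), with ADU-S100 lowest.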
